A study of Arabidopsis thaliana with 12 samples.

Results

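Water crosses plant membranes largely through aquaporins, channel proteins of the major intrinsic protein family. The plasma membrane intrinsic proteins (PIPs) sit in the outer membrane of the cell, and the tonoplast intrinsic proteins (TIPs) sit in the membrane of the vacuole. In roots, PIPs set much of the hydraulic conductivity between soil and xylem, and TIPs let the vacuole buffer the volume of the cytoplasm. As background, auxin is known in Arabidopsis to lower the transcripts of many root aquaporins while lateral roots form, and the balance of water flow between a primordium and the tissue above it bears on emergence. The genes described here are 10 root aquaporins named by their identifiers, 6 PIPs and 4 TIPs, all of which were among the 20814 genes of the deposited table and passed the filter on low values. They are written with a hyphen in place of the semicolon of plant nomenclature, so that PIP1-1 (AT3G61430) is PIP1;1. The others are PIP1-2 (AT2G45960), PIP2-1 (AT3G53420), PIP2-2 (AT2G37170), PIP2-4 (AT5G60660), PIP2-7 (AT4G35100), TIP1-1 (AT2G36830), TIP1-2 (AT3G26520), TIP2-2 (AT4G17340) and TIP2-3 (AT5G47450).

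Poly(A) RNA was sequenced from roots of wild-type Arabidopsis seedlings that had grown for 4 d and were then kept for 3 d on 5 µM BiAux, on 10 nM IAA, on both at these doses, or on mock medium, with 3 libraries per treatment and 12 in all. BiAux is a synthetic compound that joins a pair of auxin units, and IAA (indole-3-acetic acid) is the main natural auxin. A field of the labels names another treatment than the title for 7 of the 12 libraries. Treatments were taken from the titles, which the columns of the table repeat, and which of the labels is right was not tested, so that every group below is a group of libraries labelled so. Whether the 3 libraries of a treatment came from separate plants is not stated, so p-values measure the spread between these libraries, which may be technical. Values are the normalized counts of the authors, which summed to between 32413978 and 32720463 per library. The number of reads behind them is unknown, and counting error could not be computed. In whole roots, fewer cells of a type and less RNA per cell cannot be told apart.

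The coding sequences set how well reads can be told apart between these genes, and the stretches of the closest pairs are therefore shown first. PIP2-2 and its neighbor PIP2-3 (AT2G37180), a PIP outside the 10, stand head to head on chromosome 2. Their coding sequences of 858 bases share 813 bases (94.8%). Of the different 100-base windows in their transcripts, 143 are common to both, which are 11.5% of those of PIP2-2 and 12.8% of those of PIP2-3. No other gene of the family in the table shares such a window with another member of the family, so counts of this pair are the uncertain ones. TIP2-2 and TIP2-3 share 81.5% of their coding bases, TIP1-1 and TIP1-2 share 81.1%, PIP1-1 and PIP1-2 share 87.6%, and PIP2-1 and PIP2-2 share 85.8%. The coding bases 1 to 120 follow for the 2 pairs whose proportion to each other is described below (RefSeq, TAIR10.1), with the bases that differ within a pair in capitals, 12 of them for PIP2-2 and PIP2-3 and 16 for TIP2-2 and TIP2-3.
PIP2-2: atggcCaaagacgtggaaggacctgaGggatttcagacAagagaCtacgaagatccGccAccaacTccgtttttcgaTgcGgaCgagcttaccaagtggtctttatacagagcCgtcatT
PIP2-3: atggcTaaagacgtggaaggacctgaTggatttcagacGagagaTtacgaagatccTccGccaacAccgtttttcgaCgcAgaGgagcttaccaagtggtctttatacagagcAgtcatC
TIP2-2: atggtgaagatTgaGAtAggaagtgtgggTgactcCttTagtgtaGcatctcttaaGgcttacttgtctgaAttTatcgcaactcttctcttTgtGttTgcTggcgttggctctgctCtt
TIP2-3: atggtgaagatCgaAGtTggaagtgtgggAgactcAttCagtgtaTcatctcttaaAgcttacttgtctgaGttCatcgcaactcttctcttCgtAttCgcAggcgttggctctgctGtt

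Levels of different genes are compared per kb of exon (normalized counts divided by the exon length of the RefSeq gene). The vacuolar pair TIP1-2 and TIP1-1, which conduct water and, when made in yeast, hydrogen peroxide, led the family with means over the 12 libraries of 89070 and 72190 normalized counts per kb. PIP2-1 followed at 44660, PIP2-2 at 42610, PIP1-2 at 38330, PIP1-1 at 35680 and TIP2-2 at 35070 normalized counts per kb. PIP2-7 at 24840, TIP2-3 at 16510 and PIP2-4 at 7327 closed the list of 10. Among the 20814 genes, ordered by mean normalized count with no correction for length, TIP1-2 ranked 4, TIP1-1 ranked 8, PIP2-1 ranked 14 and PIP2-4 ranked 431. Within a library, TIP1-2 was above TIP1-1, TIP1-1 above PIP2-1, TIP2-2 above PIP2-7, PIP2-7 above TIP2-3 and TIP2-3 above PIP2-4 in 12 of 12 libraries. The middle of the order was not as fixed. PIP2-1 exceeded PIP2-2 per kb in 10 of 12 libraries, PIP2-2 exceeded PIP1-2 in 10, PIP1-2 exceeded PIP1-1 in 9 and PIP1-1 exceeded TIP2-2 in 6. PIP1-1 and TIP2-2 thus had no order, and the ranges of all 5 genes from PIP2-1 to TIP2-2 overlapped. The counts of PIP2-2 are less certain because of the windows it shares with PIP2-3. The part of this in its place below PIP2-1 was not tested.

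**Figure D1:**
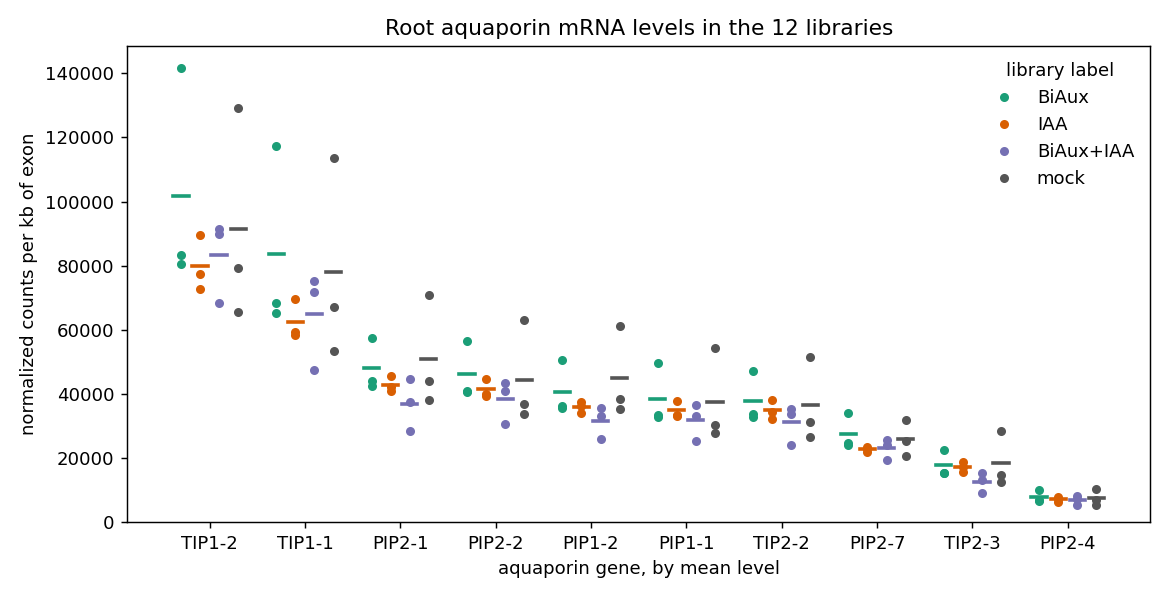
Levels of the 10 aquaporin genes in normalized counts per kb of exon (linear axis from 0), ordered by their mean. Points are single libraries, bars are means of 3 libraries, and colors mark the label, with BiAux, IAA and BiAux+IAA left of mock. In the BiAux and mock groups, 1 library stands well above the other two for nearly every gene.

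The 10 genes took between 1.22% and 2.64% of all normalized counts of a library. Their share was 2.49%, 1.62% and 1.66% in the BiAux libraries 1, 2 and 3, 1.57%, 1.76% and 1.54% in the IAA libraries, 1.74%, 1.22% and 1.66% in the BiAux+IAA libraries, and 2.64%, 1.60% and 1.38% in the mock libraries. BiAux 1 and mock 1 were the highest and BiAux+IAA 2 the lowest, and the ranges of the 4 groups overlapped. The whole family in the table, 29 of its 35 genes, took between 1.47% and 3.08%.

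Most of this movement was shared by PIPs and TIPs alike. Set against each gene's own mean over the 12 libraries on the log2 scale, the 10 genes deviated on average by 0.51 in BiAux 1 and 0.62 in mock 1, with all 10 above their means in each of these libraries. In BiAux+IAA 2 the mean deviation was -0.50 and in mock 3 it was -0.31, with 0 of 10 above their means. In the other 8 libraries the mean deviation stayed between -0.12 and 0.08. The libraries that stand apart thus include 2 of the 3 mock libraries, in opposite directions. The deviations of any pair of the 10 genes followed each other across the 12 libraries, with Pearson's r between 0.82 and 0.995 and a median of 0.94 over the 45 pairs, and between 0.40 and 0.99 with a median of 0.82 in the 10 libraries other than BiAux 1 and mock 1. These correlations are descriptions, because all genes of a library share its preparation and scaling. Replicate numbers 1 of BiAux and mock stood apart together.

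**Figure D2:**
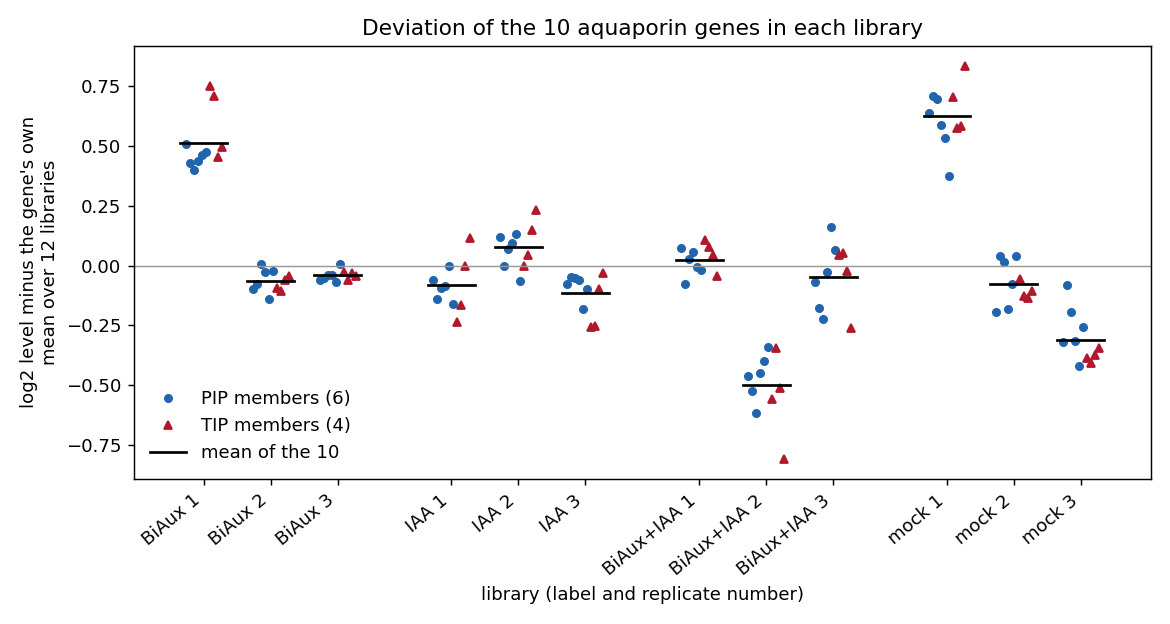
Deviation of each of the 10 genes from its own mean over the 12 libraries, on the log2 scale, by library. Circles are PIPs, triangles are TIPs and black bars are the mean of the 10, at 0.51 in BiAux 1, -0.50 in BiAux+IAA 2, 0.62 in mock 1 and -0.31 in mock 3.

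The spread within groups was larger for these genes than for most. The SD within groups, pooled over the 4 treatments on the log2 scale, had a median of 0.33 over the 10 genes and of 0.15 over the 19338 genes tested. It lay between the percentile 79.4 of all tested genes for PIP2-7 and the percentile 97.5 for TIP1-1. Differences between the treatments made up 15.2% of the sum of squares of the median aquaporin gene, against 35% for the median tested gene.

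Markers of the endodermis and most of those of root hairs moved with the libraries that stand apart. Most of those of the xylem did so to a smaller degree. The 7 markers of the endodermis, the layer with the Casparian strip, summed to between 20546 and 28810 normalized counts in BiAux, 20693 and 24322 in IAA, 15509 and 23734 in BiAux+IAA, and 14354 and 29133 in mock libraries. BiAux 1 and mock 1 had the highest sums, with all 6 tested markers above their own means, and BiAux+IAA 2 and mock 3 had the lowest among all libraries, with 0 of 6. CASP1, a protein of the Casparian strip, had 14302 normalized counts in BiAux 1 and 14441 in mock 1, against 7590 in BiAux+IAA 2 and 6850 in mock 3. ESB1 of the same list was close to 0, with 4 to 20 normalized counts. The 5 root hair markers summed to between 10205 and 15008 in BiAux, 8746 and 10329 in IAA, 8216 and 12491 in BiAux+IAA, and 7472 and 12944 in mock libraries, with none at 0. Here too BiAux 1 and mock 1 had the highest sums, at 15008 and 12944, and mock 3 and BiAux+IAA 2 the lowest, at 7472 and 8216. In BiAux 1 and mock 1, 4 of 5 root hair markers were above their own means. RHD6 did not follow, with 571 and 543 normalized counts there, against 603 in BiAux+IAA 2 and 607 in mock 3. In BiAux+IAA 3 the sum was 12491 with 5 of 5 above their own means, while the aquaporins there were at -0.05. The 5 xylem markers deviated on average by between -0.21, in IAA 3, and 0.19, in IAA 1, libraries in which the aquaporins were at -0.12 and -0.08. The xylem sums were highest in mock 1 (14541) and BiAux 1 (14446). The mean deviation of the xylem markers was 0.13 and 0.14 there, and -0.09 in both BiAux+IAA 2 and mock 3. Of the 5, 3 were above their own means in mock 1 and 4 in BiAux 1. IRX1 was lowest of all 12 libraries in mock 1, at 1300 normalized counts. The 4 markers of dividing cells summed to between 2843 and 3267 in BiAux, 2984 and 3370 in IAA, 3040 and 3413 in BiAux+IAA, and 2794 and 3430 in mock libraries. Their sums were lowest in mock 1 and BiAux 1, with 0 of 4 and 1 of 4 markers above their own means. Of 4 shoot photosynthesis genes, RBCS1A and LHCA1 were in the table, and they summed to between 463 and 543 in BiAux, 473 and 699 in IAA, 507 and 724 in BiAux+IAA, and 799 and 940 in mock libraries, with mock above all others. The part of these cell types in the aquaporin levels was not tested.

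**Figure D3:**
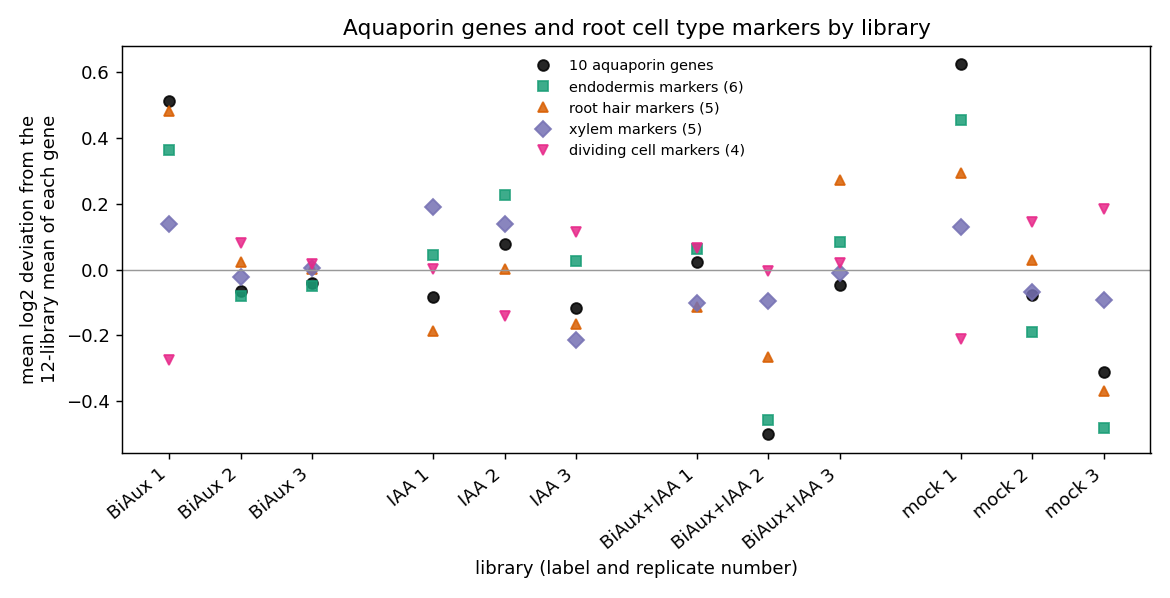
Mean log2 deviation of the 10 aquaporin genes and of 4 lists of root cell type markers, each gene set against its own mean over the 12 libraries. In BiAux 1 and mock 1 the aquaporins (0.51 and 0.62) and the endodermis markers (0.36 and 0.46) are high. The mean of the markers of dividing cells is low there (-0.27 and -0.21), with 1 of 4 and 0 of 4 above their own means. In BiAux+IAA 2 and mock 3 the endodermis markers are at -0.46 and -0.48. The root hair markers are at 0.48 and 0.29 in BiAux 1 and mock 1 and at -0.27 and -0.37 in BiAux+IAA 2 and mock 3. They are at 0.27 in BiAux+IAA 3, where the aquaporins are at -0.05.

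The comparisons ask whether BiAux, IAA or both changed the aquaporin transcripts of the root. Each was fitted with limma on its 6 libraries, on the log2 of the normalized count plus 16.3 (0.5 CPM, counts per M of the library total), so that fold changes are on this scale. Calls needed an unadjusted p under 0.05 together with a log2 fold change past 0.5 in either direction. Benjamini-Hochberg adjustment over the 19338 genes tested gave the adjusted p-values beside them. Of the 60 tests of the 10 genes, in 5 comparisons and 1 interaction, 1 was called and 0 had an adjusted p under 0.05, and 2 had an unadjusted p under 0.05. As a look at the labels, of 7 genes known to be induced by auxin 6 were tested. For IAA against mock, where 3.29% of all genes were called, 1 of the 6 was called higher, GH3.3, an enzyme that conjugates IAA, with a log2 fold change of 0.82 (adjusted p = 0.129 with limma). The other 5 were not called, with IAA1 at -0.25, IAA19 at -0.04, GH3.1 at 0.02, LBD16 at 0.15 and LBD29 at 0.48. For BiAux against mock, where 1.59% of all genes were called, 3 of the 6 were called lower and 0 higher. For BiAux+IAA, 2 of the 6 were called lower against mock (5.6%) and 4 against IAA (3.4%), with 0 higher in either. Against BiAux (2.74%), 1 of the 6 was called higher and 0 lower.

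BiAux against mock gave no called aquaporin among the 10, where 1.59% of all genes were called. The 10 log2 fold changes lay between -0.12 and 0.17 with a median of 0.08, 8 of them above 0, beside a median of -0.04 over all genes. PIP2-1, a plasma membrane channel for water that conducts hydrogen peroxide as well, had 90585, 69032 and 66773 normalized counts in BiAux libraries 1 to 3, against 111292, 69272 and 60013 in mock libraries. TIP1-2 had 182811, 103839 and 107426 normalized counts in BiAux, against 166596, 102409 and 84402 in mock libraries. For both genes the first library of each group was the highest and the groups overlapped. The log2 fold change of PIP2-1 was -0.05 (95% interval -0.63 to 0.53) and that of TIP1-2 was 0.17 (-0.57 to 0.90). The same-numbered libraries of BiAux and mock deviated together, and with the replicate number as a block the intervals narrowed to between -0.29 and 0.20 for PIP2-1 and between -0.09 and 0.43 for TIP1-2, again with no call among the 10. The direction hung on single libraries. The median log2 fold change of the 10 genes was 0.37 without mock 1, -0.12 without BiAux 1 and -0.11 without mock 3.

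IAA against mock likewise gave 0 calls among the 10 (3.29% of all genes called). All 10 log2 fold changes were below 0, from -0.29 for PIP1-2 to -0.01 for TIP2-2, with a median of -0.09 beside 0.00 over all genes, and the lowest unadjusted p was 0.198. PIP1-2, which contributes to root hydraulic conductivity, had 54312, 59763 and 57928 normalized counts in IAA, against 97830, 61529 and 56540 in mock libraries. The IAA libraries were close to each other and to mock 2 and mock 3. Without mock 1 the median of the 10 was 0.19, with 9 of 10 above 0, so the direction below mock rested on this library. TIP2-3 was then 0.33 (adjusted p = 0.0762 with limma). Of 10 genes of the circadian clock, 6 were called higher and 1 lower for IAA against mock. All 10 had an unadjusted p under 0.05 with limma. They summed to between 19216 and 19536 normalized counts in IAA and between 12521 and 14999 in mock libraries. For BiAux+IAA against mock, where 5.6% of all genes were called, 4 were called higher and 3 lower. The part of this difference in the aquaporin levels was not tested.

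BiAux+IAA against mock had all 10 log2 fold changes below 0, from -0.50 for TIP2-3 to -0.08 for TIP1-2 and with a median of -0.19 beside -0.01 over all genes, and again 0 calls, where 5.6% of all genes were called. TIP2-3, a vacuolar channel that conducts ammonia as well as water when made in yeast, had 18015, 10608 and 15488 normalized counts in BiAux+IAA, against 33178, 17245 and 14653 in mock libraries. BiAux+IAA 2 was the lowest of all 12 libraries for this gene and mock 1 the highest, and the groups overlapped. Its log2 fold change of -0.50 had an SE of 0.30 and an unadjusted p of 0.134 with limma (adjusted p = 0.584). PIP2-1 had 70044, 44792 and 58777 normalized counts in BiAux+IAA libraries, with a log2 fold change of -0.44 (95% interval -1.02 to 0.14). PIP1-2 had 56736, 41677 and 52973, with -0.48 (-0.995 to 0.03). Without mock 3, TIP2-3, PIP1-2 and PIP2-1 were called lower, with log2 fold changes of -0.74, -0.63 and -0.63 and adjusted p-values of 0.364, 0.331 and 0.396 with limma. In that setting 552 of the 19338 genes tested were called higher and 734 lower. Without mock 1 the median of the 10 was 0.09, with 7 of 10 above 0.

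Adding BiAux to IAA was compared directly, and BiAux+IAA against IAA gave 0 calls among the 10 (3.4% of all genes called). This comparison does not use the mock libraries, and its SEs were the smallest of the 5 comparisons, from 0.12 to 0.18. TIP2-3 had 18015, 10608 and 15488 normalized counts in BiAux+IAA, against 20156, 21859 and 18166 in IAA libraries, so that every BiAux+IAA library lay below every IAA library. Its log2 fold change was -0.48 (95% interval -0.84 to -0.12), which misses the limit of 0.5, with an unadjusted p of 0.0134 and an adjusted p of 0.129 with limma. It passed both limits without IAA 3 (-0.55), without BiAux+IAA 3 (-0.53) and without BiAux+IAA 1 (-0.64, adjusted p = 0.0475), but was -0.26 without BiAux+IAA 2 (adjusted p = 0.150), and over all alternatives its adjusted p ranged between 0.0475 and 0.501. Its sister TIP2-2 had 47875, 32631 and 45797 normalized counts in BiAux+IAA, against 46469, 51489 and 43477 in IAA libraries, and the groups overlapped (log2 fold change -0.18, 95% interval -0.51 to 0.15). The other 8 genes had log2 fold changes between -0.24 and 0.05. The difference between TIP2-3 and TIP2-2 was not tested.

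BiAux+IAA against BiAux gave the only call, TIP2-3, 1 of the 10 genes where 2.74% of all genes were called. It was lower, with 18015, 10608 and 15488 normalized counts in BiAux+IAA, against 26194, 18053 and 18028 in BiAux libraries. The groups did not overlap, although the highest BiAux+IAA library nearly met the lowest BiAux library. The log2 fold change was -0.51 (SE 0.21), with an unadjusted p of 0.0431 and an adjusted p of 0.456 with limma. The call was lost without BiAux 1 (-0.33), without BiAux+IAA 2 (-0.29), without BiAux+IAA 3 (-0.56), with median-of-ratios factors (-0.54) and in 1 fit of all 12 libraries (-0.51), and its adjusted p ranged between 0.135 and 0.860 over the alternatives. Without BiAux+IAA 1, PIP2-1 was called as well (-0.54, adjusted p = 0.541 with limma). All 10 genes were below 0, from TIP2-3 to PIP2-4 at -0.17, with a median of -0.28 beside 0.02 over all genes. BiAux 1 is in this comparison the library with high aquaporins and BiAux+IAA 2 the one with low aquaporins. Leaving out mock 1, BiAux 1 and BiAux+IAA 2 together, a choice made after seeing the values that kept the low mock 3 as 1 of 2 mock libraries, gave a median of 0.05 with 7 of 10 above 0 here, and medians of 0.17 for BiAux, 0.19 for IAA and 0.26 for BiAux+IAA against mock.

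**Figure D4:**
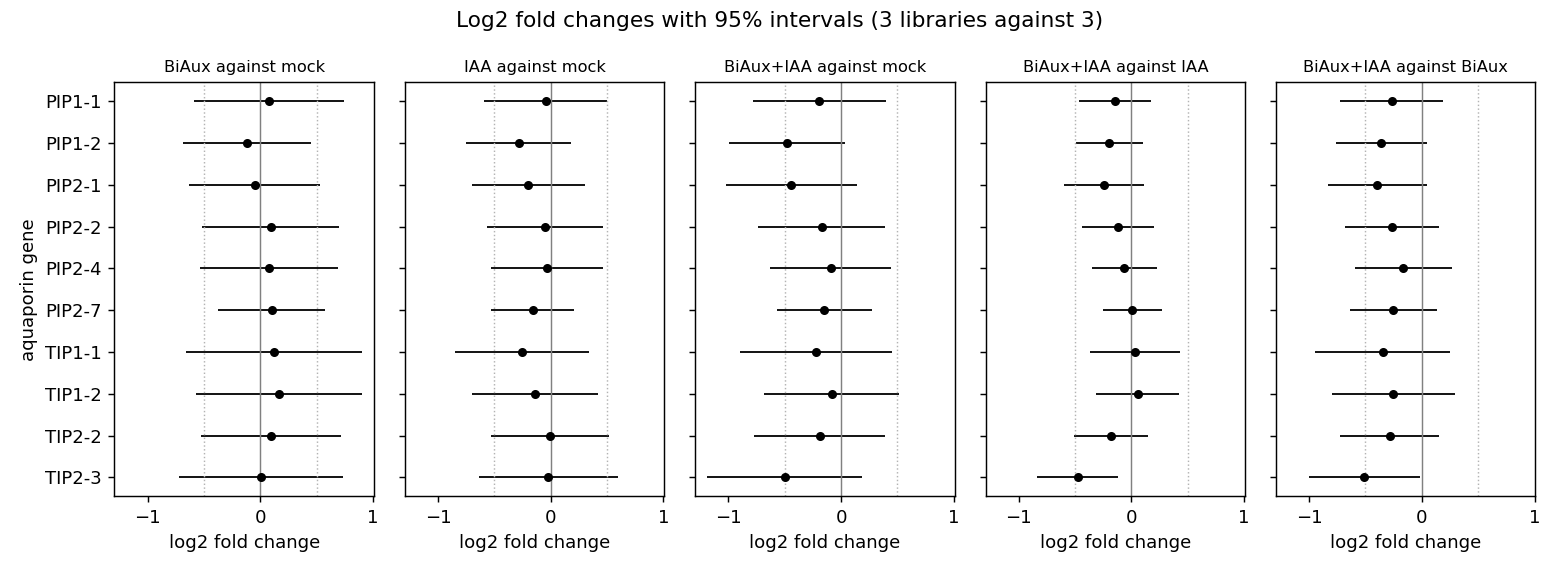
Log2 fold changes of the 10 genes in the 5 comparisons, with 95% intervals from limma on 3 libraries against 3. The dotted lines mark -0.5 and 0.5, and the intervals that leave out 0 are those of TIP2-3 for BiAux+IAA against IAA (-0.84 to -0.12) and against BiAux (-0.997 to -0.02).

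The interaction asks whether the difference made by BiAux depended on IAA. With limma on all 12 libraries, 0 of the 10 genes had an unadjusted p under 0.05, where 7.94% of all genes had one. The values lay between -0.49 for TIP2-3 (95% interval -1.33 to 0.36) and -0.07 for PIP1-2 on the log2 scale, and the median of the 10 was -0.17 beside 0.02 over all genes. Without mock 1, TIP2-3 (-0.84) and TIP2-2 (-0.56) passed the limits, with adjusted p-values of 0.200 and 0.292 with limma. In that setting 794 of the 19338 genes tested passed them upward and 484 downward. BiAux and IAA on their own were given at unlike doses (5 µM and 10 nM), and they are set side by side with no comparison. The 10 genes together took 2.49%, 1.62% and 1.66% of the counts in BiAux and 1.57%, 1.76% and 1.54% in IAA libraries.

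The remaining members kept the same pattern across libraries. PIP1-1, which in Arabidopsis as in maize is thought to need a PIP2 partner to reach the plasma membrane, ranged between 50815 and 77129 normalized counts in BiAux, 51489 and 59022 in IAA, 39456 and 57091 in BiAux+IAA, and 43507 and 84402 in mock libraries. PIP2-2 ranged between 54803 and 76120 in BiAux, 53010 and 60096 in IAA, 41275 and 58493 in BiAux+IAA, and 45261 and 84636 in mock libraries. Mock held both the widest range and the highest library for each of these PIPs. PIP2-7 varied least, 1.76-fold from its lowest library, BiAux+IAA 2, to its highest, BiAux 1. PIP2-4, a channel made mainly in roots, had 14361, 9448 and 9925 normalized counts in BiAux, 10411, 11393 and 9171 in IAA, 10375, 7901 and 11633 in BiAux+IAA, and 15054, 9877 and 7771 in mock libraries, and treatments made up 4.54% of its sum of squares, the least of the 10. TIP1-1 had 144929, 80851 and 84636 normalized counts in BiAux, 73272, 86056 and 72063 in IAA, 92938, 58574 and 88905 in BiAux+IAA, and 140576, 82952 and 65854 in mock libraries. The first BiAux and mock libraries again stood above all others. TIP2-3 varied most, 3.13-fold from BiAux+IAA 2 to mock 1.

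Because the 10 genes moved together, 7 ratios of paralogs were also taken within each library. The pairs were chosen with the values known, so the ratios are descriptions with no test. In an exact two-sided permutation test, 3 libraries against 3 could reach no less than p = 0.1. How many other pairs of genes separate a group in this way was not counted, so no separation below is particular to these pairs. Ratios with PIP2-2 also rest on its less certain counts, and the part of this was not tested. The ratio of PIP1-2 to PIP1-1 per kb was 1.02, 1.09 and 1.08 in BiAux, 1.01, 0.987 and 1.096 in IAA, 0.968, 1.03 and 0.997 in BiAux+IAA, and 1.13, 1.26 and 1.27 in mock libraries, so the mock libraries were above all 9 others. The ratio of PIP2-2 to PIP2-1 per kb averaged 0.959 ± 0.024 in BiAux, 0.964 ± 0.011 in IAA, 1.05 ± 0.065 in BiAux+IAA, and 0.870 ± 0.028 in mock libraries (SD, n = 3 each), with the mock libraries below all others. The ratio of TIP2-3 to TIP2-2 per kb averaged 0.468 ± 0.0086 in BiAux, 0.492 ± 0.0093 in IAA, 0.401 ± 0.031 in BiAux+IAA, and 0.498 ± 0.045 in mock libraries (SD, n = 3 each). Here the BiAux+IAA libraries, at 0.435, 0.376 and 0.391, were below all 9 others. The ratio of TIP1-2 to TIP1-1 averaged 1.22 ± 0.011 in BiAux, 1.28 ± 0.028 in IAA, 1.30 ± 0.12 in BiAux+IAA, and 1.18 ± 0.046 in mock libraries (SD, n = 3 each), and the groups overlapped except for IAA against BiAux and against mock. The ratio of PIP2-4 to PIP2-1 averaged 0.161 ± 0.012 in BiAux, 0.166 ± 0.013 in IAA, 0.189 ± 0.027 in BiAux+IAA, and 0.148 ± 0.0071 in mock libraries (SD, n = 3 each), and the groups overlapped except for BiAux+IAA against mock. The ratio of PIP2-7 to PIP2-1 averaged 0.575 ± 0.022 in BiAux, 0.531 ± 0.017 in IAA, 0.637 ± 0.081 in BiAux+IAA, and 0.520 ± 0.064 in mock libraries (SD, n = 3 each), and the groups overlapped except for BiAux against IAA.

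**Figure D5:**
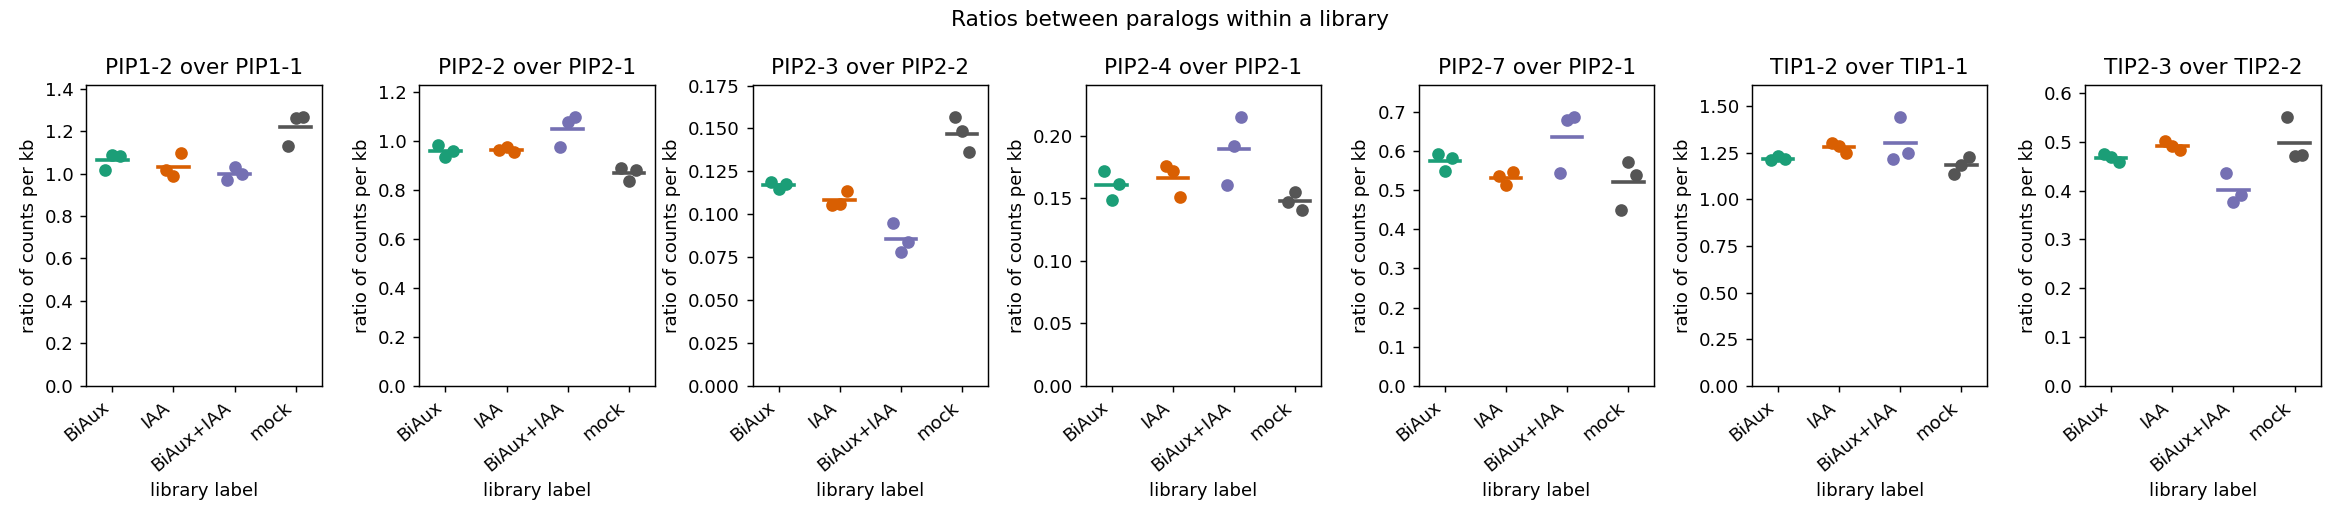
Ratios of normalized counts per kb between 7 pairs of paralogs within each library (linear axes from 0). Points are libraries and bars are means of 3. The mock libraries lie above all others for PIP1-2 over PIP1-1 (1.13 to 1.27) and PIP2-3 over PIP2-2 (0.136 to 0.157) and below them for PIP2-2 over PIP2-1, and the BiAux+IAA libraries lie below all others for TIP2-3 over TIP2-2 (0.376 to 0.435).

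Of the 35 genes of the aquaporin family, 29 were in the table and 28 passed the filter. Of the 28, 1 was called for BiAux+IAA against mock (5.6% of all genes called), 2 against BiAux (2.74%) and 0 in the other 3 comparisons. Besides TIP2-3, the called gene was PIP2-3, the neighbor of PIP2-2 that rises in desiccated plants. It had 5031, 2920 and 4181 normalized counts in BiAux+IAA, against 12026, 6690 and 5587 in mock libraries, and these groups did not overlap. Its log2 fold change was -0.95 (SE 0.29), with an unadjusted p of 0.00902 and an adjusted p of 0.164 with limma. Against BiAux, at 8180, 5752 and 5856 normalized counts, BiAux+IAA was lower by a log2 fold change of -0.72 (adjusted p = 0.280 with limma), and against IAA, at 5080, 5788 and 5567, by -0.47 (unadjusted p = 0.0112, not called). This last value was -0.64 without BiAux+IAA 1 (adjusted p = 0.0262 with limma), -0.52 without IAA 1 and -0.51 without BiAux+IAA 3, which all passed the limits, and -0.25 without BiAux+IAA 2. Over the 15 alternatives, of which 14 kept the call, its adjusted p with limma ranged between 0.000438 and 0.504 against mock. Against BiAux it ranged between 0.0287 and 0.652. Both low ends came from the replicate block, although the numbers did not pair these libraries. Their r was between -0.423 and 0.337 against mock and between -0.207 and 0.263 against BiAux. Without mock 1, BiAux 1 and BiAux+IAA 2 the log2 fold changes of PIP2-3 were -0.41 against mock and -0.34 against BiAux, which misses the limit of 0.5. The ratio of PIP2-3 to PIP2-2 per kb was 0.119, 0.115 and 0.118 in BiAux, 0.106, 0.106 and 0.114 in IAA, 0.0948, 0.0780 and 0.0835 in BiAux+IAA, and 0.157, 0.148 and 0.136 in mock libraries. The 4 groups did not overlap in this ratio, with mock highest and BiAux+IAA lowest. This pair too was chosen with the values known, and the same was not counted for other pairs of genes. A read within a window that PIP2-2 and PIP2-3 share cannot be assigned to 1 of them by its own bases. The study sequenced both ends of each fragment, so the other read may still tell them apart. The part of this in the ratio was not tested. The other family genes gave 0 calls, where 1.59% to 5.6% of all genes were called, including the 6 NIPs, channels for metalloids and small uncharged solutes, and the 3 SIPs, which sit in internal membranes.

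The 250 bases before the start site of each gene were searched on both strands for 4 motifs among 27443 RefSeq genes, none of which contains another. The auxin response element TGTCTC was in 10.9% of all windows and in 0 of the 10 genes, the G-box CACGTG in 6.49% and in 0, and the evening element AAAATATCT in 2.36% and in 0. The form TGTCGG, in 4.16% of all windows, was in the window of TIP1-2 alone among the 10, starting 124 bases before the start site. The window, chr3:9723905-9724154 of TAIR10.1, read on the minus strand, is shown with the motif in capitals as the match among the 10.
TIP1-2: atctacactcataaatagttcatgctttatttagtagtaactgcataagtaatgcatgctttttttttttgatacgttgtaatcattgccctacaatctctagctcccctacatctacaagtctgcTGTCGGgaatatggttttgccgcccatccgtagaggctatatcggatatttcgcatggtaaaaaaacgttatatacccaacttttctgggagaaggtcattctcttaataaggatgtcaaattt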

How the data were processed

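Root poly(A) RNA was sequenced in 12 libraries. Per the methods of the study, the authors used FastQC 0.11.9 for read quality, Trimmomatic 0.36 for trimming, STAR 2.5.3a for alignment to TAIR10 (the submitters' processing notes name HISAT2), HTSeq 1.99.2 for counts on Araport11 genes and edgeR for normalization. In the deposited table, each normalized count of 20814 genes stands on a log2 scale, after adding 1 to a whole number. All 85641 values under 8 fitted this within 0.001. The genes were listed at 3 or more in IAA 3, so genes near 0 there are left out. The design had assumed values that were not on a log scale.

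The log2 was undone. A mean of 0.5 CPM or more kept 19338 genes, which were tested with limma 3.58.1 (lmFit, eBayes with trend, R 4.3.3) after adding 16.3. Same-numbered BiAux and mock libraries deviated together (r = 0.832, 0.504 and 0.668 across 15226 genes), by their titles' numbers only, so the blocked fit is given beside that comparison. In it, 0 of the 10 genes were called with or without the block. Levels per kb used the union of RefSeq exons (TAIR10.1), whose gene table held 20694 of the 20814 identifiers and 35 of the 35 family genes. Sequences were read with Biopython 1.88 (Python 3.11.15) and plots drawn with matplotlib 3.10.9. The 10 genes and all lists were chosen with earlier results of these data known. By rule, named genes were the 10, family and regulator genes that were called, and the 5 genes most and least like the 10. SYP121, the auxin-induced genes and the single markers named (CASP1, ESB1, RHD6, IRX1, RBCS1A, LHCA1) are outside this rule and were named after their values were seen. The 9 planned kinds of alternative were a joint fit over the 12 libraries, the replicate block, leaving out single libraries, size factors by median of ratios, the log2 values as deposited, and other pseudocounts and filters, and 1 was added after the data were seen. The steps were tested on simulated data in which each gene varied independently, with no deviation shared by the genes of a library. Calls under shared deviations such as those seen here were not tested by it. The methods of the study also name tir1-1 seedlings, and all 12 libraries here are titled as wild type.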

Additional observations from a re-analysis of the deposited data

How the results depend on the processing

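Most counts of called aquaporins among the 10 stayed at 0 or 1. For BiAux+IAA against mock, where the count was 0, the replicate block gave 1 (TIP2-3), and leaving out 1 library gave 0 to 3. For BiAux+IAA against IAA, also 0, leaving out 1 library gave 0 to 1. For BiAux+IAA against BiAux, where the count was 1, it was 0 with median-of-ratios factors, 0 in 1 fit of all 12 libraries, 0 without mock 1, BiAux 1 and BiAux+IAA 2 together, and 0 to 2 with 1 library left out. For the interaction the range with 1 library left out was 0 to 2. For BiAux and for IAA against mock the count was 0 under every alternative run. Over all 19338 genes tested, calls for BiAux+IAA against mock were 361 higher and 722 lower, with 397 and 772 under the block. Without mock 3 they were 552 and 734. For BiAux+IAA against IAA they were 292 and 365, and 396 and 415 without BiAux+IAA 1. Against BiAux they were 212 and 317, and 316 and 310 without BiAux+IAA 1. For the interaction without mock 1 they were 794 and 484. Where leaving out a library or the block changed a call, the cause was not tested. With 1 library left out of a group of 3, limma pooled the spread of both groups.

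The replicate block left the count among the 10 as it was for BiAux against mock, IAA against mock, BiAux+IAA against IAA, BiAux+IAA against BiAux and the interaction. Among the 28 family genes tested, it gave 2 in place of 1 for BiAux+IAA against mock and 1 in place of 0 for the interaction. The numbers did not pair the samples in the other comparisons, where same-numbered libraries had r between -0.531 and 0.337.

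The depth of sequencing is unknown, and with 3 libraries per group the SEs of the log2 fold changes of the 10 genes were between 0.12 and 0.33 over the 5 comparisons.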

Other observations

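Among 10 regulators of aquaporins (syntaxins that carry PIPs to the plasma membrane, kinases, ubiquitin ligases that remove PIPs and TSPO, which directs PIPs to degradation), 1 was called in any comparison, for BiAux+IAA against BiAux, where 2.74% of all genes were called. TSPO had 20, 22 and 19 normalized counts in BiAux+IAA, against 46, 32 and 33 in BiAux libraries, a log2 fold change of -0.53 with an adjusted p of 0.311 with limma, at counts near the value of 16.3 that was added. SYP121, a syntaxin that delivers PIP2 channels, had 1393, 1318 and 1345 normalized counts in BiAux+IAA, below every other library of the series, and its log2 fold changes were -0.28 against mock, -0.23 against IAA and -0.26 against BiAux (unadjusted p = 0.0110, 0.00359 and 0.00754, and adjusted p = 0.180, 0.0691 and 0.280 with limma). It was not called, since it missed the limit of 0.5, and it was chosen for mention after its values were seen. Of the 10 regulators, 3, 5 and 4 had an unadjusted p under 0.05 with limma in these comparisons. So had 2543, 3970 and 2036 of the 19338 genes tested. How many genes lay below every other library in BiAux+IAA was not counted.

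By Pearson's r over the 12 libraries, among 15201 genes outside the family with a mean of at least 5 CPM, the genes most like the mean of the 10 were URH1 (r = 0.98), XTH30 (0.97), XTH15 (0.97), AT1G30130 (0.97) and HHP2 (0.97). XTH30 and XTH15 encode enzymes that cut and join xyloglucan of the cell wall, and URH1 encodes a nucleoside hydrolase. XTH15 had 3155, 2107 and 2090 normalized counts in BiAux, 1970, 2337 and 1945 in IAA, 2153, 1422 and 2206 in BiAux+IAA, and 3129, 2282 and 1659 in mock libraries, high in BiAux 1 and mock 1 and low in BiAux+IAA 2. The most opposite were GLR3.6 (r = -0.99), PMS1 (-0.98), PAH1 (-0.97), EMB1444 (-0.97) and AT3G47570 (-0.97). Of these genes, 167 had an r of at least 0.9. These are descriptions over libraries that share their preparation and scaling.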
